A study of Arabidopsis thaliana with 79 samples.

Results

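AtLEA4-1, M17, AT3G02480, AT2G25890 and AT4G31830 are 5 Arabidopsis thaliana genes grouped here as late embryogenesis and seed oil genes. Each was read by 1 probe set, found through the platform annotation by its symbol or locus, so the group holds 5 of the 13350 genes that the annotation names alone for a probe set, and 5 of the 22746 probe sets tested. The genes were chosen by measured values of these same arrays, namely their levels in p35S polysomal RNA and in total RNA against the other promoter lines, so those differences are given below as a description with no test. The grouping rests on names and background knowledge, and the annotation used here gives AT3G02480, AT2G25890 and AT4G31830 by locus only.

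The study measured messenger RNA on 79 Affymetrix ATH1 arrays, 47 of roots and 32 of shoots, from seedlings of the Col-0 strain aged 7 days. All plants carried a transgene for the ribosomal protein RPL18B with a His6FLAG tag, driven by 1 of 13 promoters, and tagged ribosomes were pulled down from frozen tissue to obtain the polysomal RNA of the cells in which the promoter is active. Before harvest, argon was pumped over the hypoxic seedlings during 2 h in dim light, while control seedlings stayed in air. The arrays fall into 36 groups of organ, treatment and RNA population, of which 30 hold 2 arrays, 5 hold 3 and 1 holds 4.

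In shoots, hypoxic and control arrays existed for the promoters p35S, pKAT1, pSUC2, pCER5, pGL2 and pRBCS and for total RNA, and control arrays alone for pSultr2;2. In roots they existed for p35S, pSCR, pSHR, pWOL, pGL2, pSUC2, pCO2, pPEP and pRPL11C and for total RNA, again with control arrays alone for pSultr2;2. From general knowledge, p35S is active in nearly all cells, pKAT1 in guard cells, pSUC2 in phloem companion cells, pCER5 in the epidermis, pRBCS in green mesophyll and pGL2 in trichomes of the shoot. A promoter names the cells in which it drives the tag, not cells that were sorted. Total RNA came from the p35S plants as well, so the promoter, the plant line and the set of arrays cannot be told apart where p35S polysomal and total RNA stand apart from the other lines. The labels describe the replicates as independent biological experiments.

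Late embryogenesis abundant (LEA) proteins are small, mostly hydrophilic proteins that accumulate as a seed matures and dries, and many are induced in vegetative tissue by abscisic acid, drought or cold. Oleosins coat the oil bodies of the seed and keep them from fusing, and they are broken down as the seedling consumes its oil. Transcripts of both kinds are abundant in dry seeds and decline during germination. AtLEA4-1 belongs to group 4 of the LEA family and M17 was described as a transcript of late embryo development. As background, AT3G02480 is listed as a LEA family gene and AT2G25890 as an oleosin family gene. No role is given here for AT4G31830.

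The treatment and organ labels were checked on the same arrays, whose replicates correlated between 0.973 and 0.994. All 7 measured genes of a list of 10 hypoxia markers were higher under hypoxia in each of the 17 populations with both treatments. List medians ranged from 4.19 to 6.95 on the log2 scale. The list was written with earlier results of these data known, so this rise is not an independent check. The root hair expansins EXPA7 and EXPA18 were higher in roots, by 3.99 and 4.77 in control total RNA, whereas AT1G62500 and AT1G09750, also listed as root genes, were lower in roots by this measure (−2.59 and −3.60). No gene of the leaf photosynthesis list was matched to a probe set with 1 gene.

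In shoots the 5 genes were high in p35S polysomal RNA and in total RNA, and lower in most other lines. All values are log2 signals of the probe set, and levels are compared within a gene only. In control shoots AT3G02480 read 12.39 and 11.77 in p35S RNA and 11.48, 11.00 and 9.73 in total RNA, against 6.21 to 9.63 on the 12 arrays of the 6 other lines. AtLEA4-1 read 9.83 and 8.87 in p35S RNA and 8.76, 8.22 and 7.21 in total RNA, against 5.05 to 8.22 in the other lines. M17 read 8.97 and 7.97 in p35S RNA and 9.30, 8.04 and 9.54 in total RNA, against 3.87 to 7.69. All p35S arrays of these 3 genes lay above every array of the other lines. So did all 3 total RNA arrays of AT3G02480 and M17, and 2 of 3 of AtLEA4-1. How often arrays lie so over all probe sets was not counted.

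The oleosin family gene AT2G25890 followed the same order, with 8.82 and 8.18 in control shoot p35S RNA and 8.19, 7.39 and 7.06 in total RNA, against 4.64 to 6.08 in the other lines. AT4G31830 read 8.34 and 7.76 in p35S RNA and 7.57, 7.38 and 6.64 in total RNA, against 4.85 to 6.21. For both genes the p35S and the total RNA arrays lay above every array of the other lines. In hypoxic shoots p35S RNA also lay above all 10 arrays of the 5 other lines for each gene, while total RNA overlapped with them for some. AT3G02480 read 12.26 and 11.73 in hypoxic p35S RNA and 11.19, 11.17 and 9.74 in hypoxic total RNA, against 6.79 to 10.32 in the other lines. AtLEA4-1 read 8.84 and 8.07 in p35S RNA and 7.41, 6.60 and 7.33 in total RNA, against 5.10 to 8.04, so that none of its total RNA arrays lay above the lines. Of the 3 total RNA arrays, 3 lay above all lines for AT2G25890, and 2 for each of M17, AT3G02480 and AT4G31830. In these bulk extracts, fewer cells of a type and less RNA per cell cannot be told apart.

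**Figure D1:**
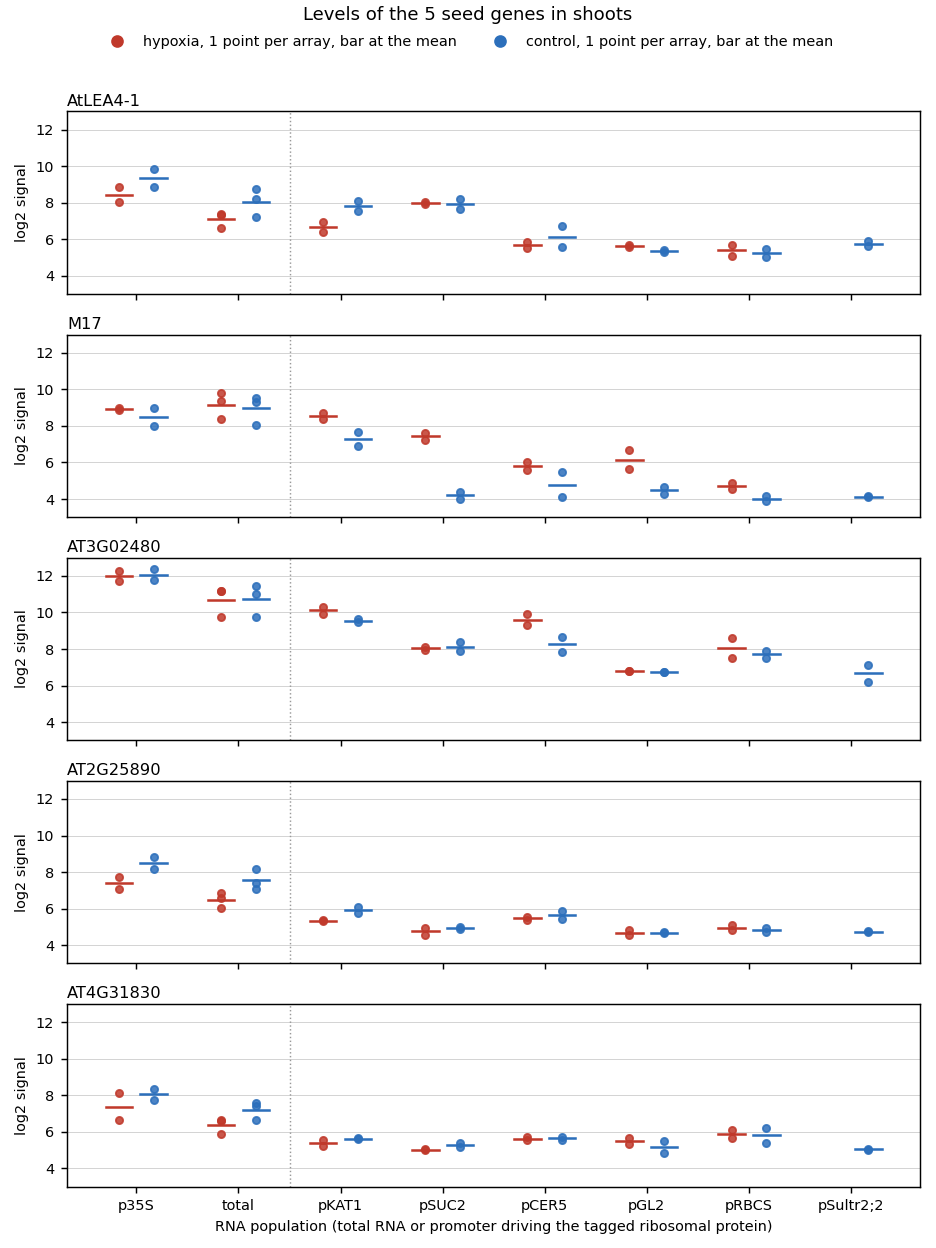
Log2 signal of each gene in shoots, 1 point per array, with hypoxia (red) left of control (blue) in each RNA population and a bar at the group mean. p35S and total RNA stand left of the dotted line, where in air AT3G02480 lies between 9.73 and 12.39, against 6.21 to 9.63 in the other lines.

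Expressed as a difference from the unweighted mean of the other lines, p35S RNA of control shoots was 2.97 higher for AtLEA4-1, 3.65 for M17, 4.24 for AT3G02480, 3.37 for AT2G25890 and 2.63 for AT4G31830. The same difference for total RNA was 1.68, 4.14, 2.90, 2.42 and 1.77 in the same order of genes. M17 alone of the 5 had a larger difference in total RNA than in p35S RNA. Its p35S and total RNA arrays overlapped in air, however, and the difference between them was not called. In hypoxic shoots the median over the 5 genes was 2.37 for p35S and 1.44 for total RNA, against medians of 3.37 and 2.42 in air. Over all 22746 probe sets, the median p35S difference of control shoots was −0.01 and 1.79% were called, and 3.76% were called in total RNA. Under hypoxia 1.48% were called in p35S RNA and 3.14% in total RNA. A probe set is called here when its adjusted p is under 0.05 and its log2 difference is at least 1 in size. These shares give the background only, since the same differences chose the genes.

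RNA quality was read from the difference between the 3′ and 5′ probe sets of the actin control, which is larger where transcripts are shorter. In shoots it ranged from 4.51 to 5.13 in p35S RNA (median 4.78) and from 4.48 to 6.24 in total RNA (median 5.47), against 4.25 to 6.28 in the other lines (median 5.45). The p35S and total RNA arrays thus lay within the range of the other lines. The part of this measure in the differences above was not tested.

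Among the 6 other shoot lines, the levels were uneven, and the pKAT1 line stood above the rest for M17 and AT3G02480. In air M17 read 7.69 and 6.90 in pKAT1, against 3.87 to 5.49 on the 10 arrays of the other 5 lines. AT3G02480 read 9.63 and 9.45 in pKAT1, against 6.21 to 8.66. AtLEA4-1 was high in both pSUC2 (8.22 and 7.64) and pKAT1 (7.54 and 8.09), and its next line, pCER5, read 6.71 and 5.59. Levels of AtLEA4-1 in pSUC2 and pKAT1 overlapped with its total RNA arrays. For AT2G25890 the upper lines were pKAT1 (6.08 and 5.76) and pCER5 (5.87 and 5.46), which overlapped, whereas all other lines lay between 4.64 and 4.97. AT4G31830 was highest in pRBCS (5.39 and 6.21), which overlapped with pCER5.

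An F-test over the lines without p35S and total RNA, which did not enter, called 4 of the 5 genes in control shoots and 3 of 5 in hypoxic shoots. The range of the line means in air was 2.67 for AtLEA4-1 (adjusted p = 5.78e-12), 3.29 for M17 (2.26e-10), 2.88 for AT3G02480 (9.40e-08) and 1.24 for AT2G25890 (6.47e-06). Over the 6 alternatives other than leaving out arrays, the highest adjusted p of the F-test was 9.74e-06, 4.13e-05, 2.62e-04 and 0.0038 in the same order. These tests, and the standard errors below, rest on 1 spread per probe set shared by roots and shoots. For these genes the median SD of groups was 0.19 to 0.39 in shoots and 0.06 to 0.16 in roots. Shoot standard errors and p-values are therefore likely too small. Under hypoxia the first 3 were called, with ranges of 2.60, 3.83 and 3.33. Differences among lines were common on these arrays: 33.8% of all probe sets were called in control shoots and 31.4% in hypoxic shoots. AT4G31830 was called in neither treatment (0.77 in air, adjusted p = 0.11), although it was in air without replicate 1 of pRBCS (1.18, adjusted p = 0.0278). With the offset of 50 added to the linear signals, AT2G25890 was no longer called in air (0.55).

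Each of the 6 lines was also set against the mean of the other 5 in control shoots, a test added after the values had been seen, and 8 of 30 differences were called. In pKAT1, M17 was higher by 2.97 ± 0.29 (SE; adjusted p = 1.29e-11), AT3G02480 by 2.05 ± 0.31 (9.66e-07) and AtLEA4-1 by 1.72 ± 0.25 (3.33e-07), where 5.79% of all probe sets were called. In pSUC2, AtLEA4-1 was higher by 1.86 ± 0.25 (1.82e-08), where 12.1% were called. In pGL2, AtLEA4-1 was lower (−1.23) and so was AT3G02480 (−1.32), where 0.783% were called. In pRBCS, AtLEA4-1 was lower (−1.34), where 5.41% were called, and in pSultr2;2, AT3G02480 was lower (−1.41), where 1.42% were called. None of the 5 was called in pCER5, where 11.6% of all probe sets were. AT2G25890 in pKAT1 (0.95, adjusted p = 6.70e-05) and M17 in pRBCS (−0.97, adjusted p = 0.011) lay just under the size limit. The 2 pGL2 calls were lost when shoots were fitted alone (adjusted p = 0.0541 for AtLEA4-1 and 0.0712 for AT3G02480) and without replicate 2 of pGL2, and the AT3G02480 one also without replicate 1 of pGL2 (adjusted p = 0.147). With the offset of 50 the AtLEA4-1 calls in pGL2 (−0.78) and pRBCS (−0.83) were lost, and the pSultr2;2 call was lost without replicate 1 of that line (−0.95). The pKAT1 calls and the pSUC2 call of AtLEA4-1 were kept under all alternatives run.

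In roots the 5 genes varied little among the RNA populations, apart from AT3G02480 in p35S RNA. Most of these signals were low for the array: the mean of M17 had 0.233% to 5.08% of all probe sets below it in every root group but control p35S (16.1%). For AtLEA4-1, AT2G25890 and AT4G31830 the share below lay between 8.10% and 31.3% over all root groups. The deposited values carry no detection calls, so whether these signals stood above background was not tested. AT3G02480 read 6.64 and 7.06 in hypoxic p35S roots and 8.40, 7.86 and 7.25 in control p35S roots, whereas total RNA read 5.15, 5.18 and 4.89 under hypoxia and 5.82, 5.17, 5.60 and 4.69 in air. The 19 control arrays of the 9 other root lines lay between 4.40 and 5.37 for this gene, and the 16 hypoxic arrays between 4.51 and 5.66. Its p35S arrays were thus above all others in roots. Every root group mean of AtLEA4-1 lay between 4.31 and 5.22, of M17 between 3.64 and 4.51, of AT2G25890 between 4.16 and 5.19 and of AT4G31830 between 4.47 and 5.00.

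The p35S differences from the other root lines in air were 0.69 for AtLEA4-1, 0.77 for M17, 2.94 for AT3G02480, 0.82 for AT2G25890 and 0.26 for AT4G31830. For total RNA they were between 0.04 (AT4G31830) and 0.42 (AT3G02480). The median of the 5 genes in control p35S roots rested on few arrays, being 0.77 with all of them and 0.49 without replicate 1 of that group. In these contrasts 2.65% of all probe sets were called for p35S and 2.43% for total RNA in air, and 3.61% and 1.90% under hypoxia. The F-test among the other root lines called none of the 5 genes in either treatment (limma; 0 of 5 at an unadjusted p under 0.05 in each), against 30.7% of all probe sets under hypoxia and 31.6% in air.

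**Figure D2:**
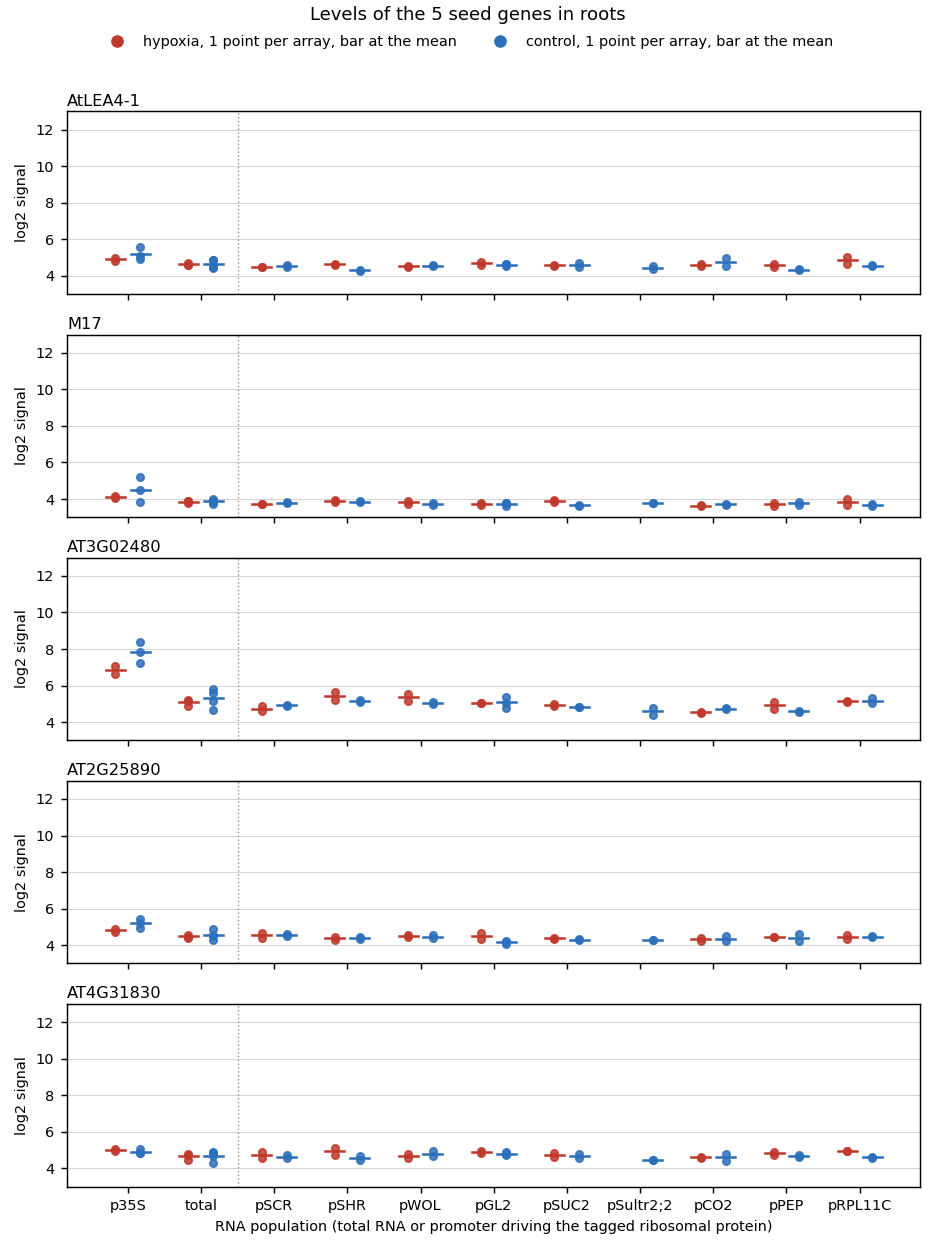
Log2 signal of each gene in roots on the axis used for shoots, 1 point per array, with hypoxia (red) left of control (blue) and a bar at the group mean. AT3G02480 in p35S RNA (6.64 to 8.40) is the exception among root groups whose other means lie between 3.64 and 5.44.

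Levels were lower in roots than in shoots for every gene, in p35S and in total RNA and in both treatments, and all 20 of these differences were called. In hypoxic total RNA the measured differences were −2.48 for AtLEA4-1, −5.32 for M17, −5.63 for AT3G02480, −2.01 for AT2G25890 and −1.71 for AT4G31830. Where a root signal lies at the array's background, as it may for M17, the true difference could be larger than the measured one, so no order of the genes is read from these values. In control p35S RNA the differences were −4.13 for AtLEA4-1, −3.96 for M17, −4.24 for AT3G02480, −3.31 for AT2G25890 and −3.15 for AT4G31830. Root and shoot arrays did not overlap in any of the 20 comparisons, but the share of all probe sets without overlap was not counted. Organ differences were called for 21.9% of all probe sets in hypoxic p35S RNA, 22.1% in control p35S RNA, 23.6% in hypoxic total RNA and 22.9% in control total RNA. The shoot arrays of p35S and total RNA are among those that chose the genes for high values, so these differences are not independent of the choice.

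No hypoxia difference of the 5 genes was called in a root population. With most root signals low for the array, a change between low levels would not be detectable, so the absence of calls does not show that the transcripts did not change. The 50 differences between hypoxia and control ranged from −0.99 (AT3G02480 in p35S) to 0.39, and 1 of 50 had an unadjusted p under 0.05 (limma). That one was AT3G02480 in p35S roots, where hypoxic and control arrays did not overlap. The same was so in 7 of the 10 root populations for this gene, with hypoxia higher in 4 of the 7. How often this happens over all probe sets was not counted, so nothing is read from that number. Without replicate 3 of the control p35S roots the AT3G02480 difference was called (−1.28, adjusted p = 0.0474). The share of all probe sets called by hypoxia in roots was 3.37% in total RNA, 2.84% in p35S, 5.32% in pSCR, 5.54% in pSHR, 6.06% in pWOL, 4.29% in pGL2, 5.80% in pSUC2, 7.01% in pCO2, 6.43% in pPEP and 8.70% in pRPL11C.

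In shoots, 7 of 35 hypoxia differences were called, 4 higher and 3 lower, and the genes did not move as a group. M17 was the only one whose mean was higher under hypoxia in all 7 shoot populations. In p35S and total RNA that direction rested on single arrays, being −0.04 without replicate 2 of the p35S controls and −0.25 without replicate 2 of the total RNA controls. Hypoxic and control arrays did not overlap in 5 of the 7 for M17, and in 3 of the 7 for each other gene. The share over all probe sets was not counted, so nothing is read from these numbers. In pSUC2, M17 read 7.23 and 7.62 under hypoxia, against 4.41 and 4.02 in air. It rose there by 3.21 ± 0.37 (SE, 2 arrays per treatment; adjusted p = 1.24e-08). The call held under each alternative run, including shoots fitted alone (adjusted p = 2.64e-04), and leaving out single arrays left the difference at 3.01 to 3.41. With the offset of 50 it was 1.70. In pSUC2 shoots 2.76% of all probe sets were called.

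In pGL2 shoots M17 read 5.62 and 6.69 under hypoxia, against 4.66 and 4.30 in air, a rise of 1.68 ± 0.37 (adjusted p = 0.00386) where 1.37% of all probe sets were called. In pKAT1 it read 8.38 and 8.71 under hypoxia, against 7.69 and 6.90 in air, a rise of 1.25 ± 0.37 (adjusted p = 0.0308) where 3.26% were called. Both calls were lost when shoots were fitted alone (adjusted p = 0.119 for pGL2 and 0.165 for pKAT1). The pGL2 call was also lost without hypoxic replicate 2 (1.14) or control replicate 2 (1.498). In pKAT1 the call needed control replicate 2 (0.85 without it) and both hypoxic replicates (1.42 without replicate 1 and 1.08 without replicate 2). In pCER5 M17 read 6.00 and 5.58, against 5.49 and 4.08 in air, and in pRBCS it read 4.87 and 4.57, against 3.87 and 4.16 in air. Neither difference was called (1.00 and 0.71), where 3.35% of all probe sets were in pCER5 and 1.30% in pRBCS. Without control replicate 1 of pCER5 the difference there was 1.70 and was called (adjusted p = 0.01).

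In p35S and total RNA, where M17 was already high in air, the hypoxia differences were 0.46 ± 0.37 and 0.21 ± 0.30, and neither was called. The total RNA arrays had an SD of 0.734 under hypoxia and 0.805 in air, wider than the shared spread behind these standard errors. The total RNA arrays read 8.36, 9.36 and 9.79 under hypoxia, against 9.30, 8.04 and 9.54 in air, and overlapped. Whether the M17 response differed among the 5 shoot lines other than p35S was asked with an F-test added after the values had been seen. The responses spanned 2.51 and the test was called (adjusted p = 0.0172), where 1.29% of all probe sets were. The call was lost with shoots fitted alone (adjusted p = 0.305) and without replicate 2 of either pSUC2 group. In roots the same test called none of the 5 genes (limma; 0 of 5 at an unadjusted p under 0.05), against 3.39% of all probe sets.

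In pSUC2 roots M17 read 3.94 and 3.85 under hypoxia, against 3.67 and 3.64 in air. Only 2.26% of all probe sets lay below its mean there under hypoxia and 0.233% in air. A change that stayed between such low levels would not be detectable, so a missing root response cannot be read from these values. They do show that hypoxic roots (mean 3.895) stayed below hypoxic shoots (7.426) in this line. In pSUC2 shoots in air M17 was low as well, with 6.62% of all probe sets below its mean. The root minus shoot difference in hypoxia response was −2.97 ± 0.52 in pSUC2 (adjusted p = 2.91e-04), the single call among 20 such tests over total RNA, p35S, pGL2 and pSUC2. It stayed between −3.17 and −2.77 when single arrays were left out, and was −1.64 with the offset of 50. In pGL2 the M17 difference of −1.69 was not called (adjusted p = 0.0756), but was with array weights (adjusted p = 0.00941), among brighter probe sets (0.0489) and without hypoxic shoot replicate 1 (−2.22). The AT2G25890 difference in total RNA lay just under the size limit (0.98, adjusted p = 0.0275) and passed it without any of 6 single arrays, among them shoot control replicate 3 (1.23). Over all probe sets 1.61% were called in total RNA, 0.611% in p35S, 1.44% in pGL2 and 2.11% in pSUC2.

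AT2G25890 fell under hypoxia in shoot total RNA and p35S RNA. It read 6.84, 6.60 and 6.02 in hypoxic total RNA, against 8.19, 7.39 and 7.06 in air, a difference of −1.06 ± 0.19 (adjusted p = 1.25e-04) where 1.81% of all probe sets were called. In p35S RNA it read 7.75 and 7.08 under hypoxia, against 8.82 and 8.18 in air, a difference of −1.09 ± 0.23 (adjusted p = 0.00319) where 1.22% were called. The arrays did not overlap in either. The p35S call was lost with shoots fitted alone (adjusted p = 0.086) and without control replicate 1 (−0.77) or hypoxic replicate 2 (−0.76). The total RNA call, near the size limit of 1, ended when control replicate 1 (−0.74) or hypoxic replicate 3 (−0.83) was left out and after quantile normalization (−0.99). The control arrays of these groups are among those that chose the gene for high values.

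AtLEA4-1 and AT4G31830 had negative hypoxia differences of like size in the same RNA, which were not called. They were −0.95 and −0.83 in total RNA (adjusted p = 0.0183 and 0.0223, under the size limit) and −0.89 and −0.68 in p35S RNA (adjusted p = 0.215 and 0.403). Without control replicate 3 both total RNA differences were called (−1.38 for AtLEA4-1 and −1.11 for AT4G31830). The AtLEA4-1 difference in total RNA was also called with array weights (−1.16) and without hypoxic replicate 1 (−1.09) or hypoxic replicate 3 (−1.055). The p35S difference of AT4G31830 rested on single arrays, being −1.41 without hypoxic replicate 1 and 0.05 without hypoxic replicate 2. AtLEA4-1 fell in pKAT1, with 6.42 and 6.95 under hypoxia, against 7.54 and 8.09 in air (−1.13 ± 0.32, adjusted p = 0.0201). AT3G02480 rose in pCER5, with 9.91 and 9.31 under hypoxia, against 8.66 and 7.84 in air (1.36 ± 0.40, adjusted p = 0.0266). Both were lost with shoots fitted alone (adjusted p = 0.143 for AtLEA4-1 and 0.116 for AT3G02480). Leaving out control replicate 2 ended the AtLEA4-1 call (−0.85) and the AT3G02480 call (0.95), and so did leaving out hypoxic replicate 1 (−0.86 and 1.06 in the same order). In p35S and total RNA the level of AT3G02480 differed by −0.08 ± 0.40 and −0.04 ± 0.32 between treatments. Its total RNA arrays had an SD of 0.827 under hypoxia and 0.9 in air, wider than the shared spread.

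**Figure D3:**
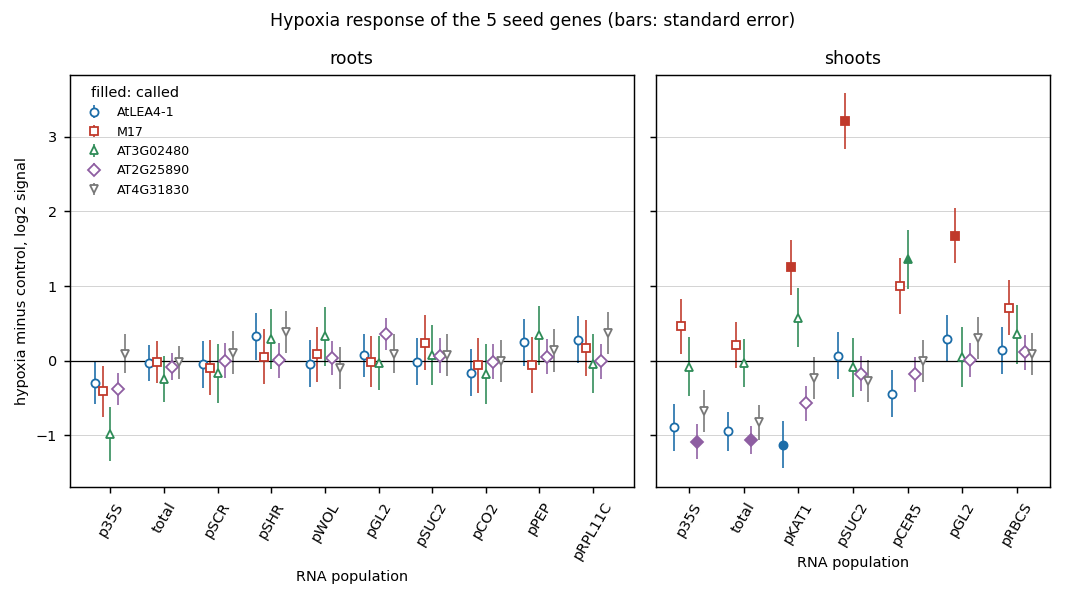
Hypoxia minus control difference in log2 signal for each gene and RNA population in roots (left) and shoots (right), with standard errors, and filled symbols for called differences. The 7 filled symbols all lie in shoots, with M17 in pSUC2 at 3.21.

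A further comparison set p35S polysomal RNA against total RNA of plants of the same line, which asks how far a transcript is represented on tagged ribosomes. The arrays are the ones on which the genes were chosen, with p35S RNA among the populations read. Neither the direction nor the adjusted p of these differences is therefore independent of the choice. Of the 20 differences, 7 were called higher in polysomal RNA and none was called lower. AT3G02480 was higher in all 4 settings, by 1.77 ± 0.36 in hypoxic roots (adjusted p = 5.19e-04), 2.51 ± 0.30 in control roots (1.29e-08), 1.30 ± 0.36 in hypoxic shoots (0.0131) and 1.34 ± 0.36 in control shoots (0.0105). AtLEA4-1 was higher in hypoxic shoots by 1.34 ± 0.29 (adjusted p = 0.00117) and in control shoots by 1.29 ± 0.29 (0.00192). AT4G31830 was higher in hypoxic shoots by 1.01 ± 0.26 (0.00642).

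AT2G25890 had differences of 0.93 and 0.95 in hypoxic and control shoots, just under the size limit (adjusted p = 0.00242 and 0.00194). Both passed it after quantile normalization (1.01 and 1.10) and without single arrays, such as replicate 2 of p35S RNA (1.26 and 1.27). AT4G31830 in control shoots (0.86, adjusted p = 0.0226) likewise passed it after quantile normalization (1.02) and without replicate 2 of p35S RNA (1.14) or replicate 1 of total RNA (1.04). M17 differed by −0.24 ± 0.34 in hypoxic shoots and −0.49 ± 0.34 in control shoots, neither called, and its sign turned without replicate 3 of hypoxic total RNA (0.07) or replicate 2 of control p35S RNA (0.01). Both shoot calls of AT3G02480 and the call of AT4G31830 were lost with shoots fitted alone (adjusted p = 0.0637, 0.0538 and 0.058), and the AT4G31830 difference was 0.28 without replicate 1 of hypoxic p35S shoots. Without that array the shoot calls of AtLEA4-1 (0.95) and AT3G02480 (1.03, adjusted p = 0.24) under hypoxia were lost too. The hypoxic calls of AT3G02480 (0.82, adjusted p = 0.191) and AT4G31830 (0.76, adjusted p = 0.0861) were lost without replicate 3 of total RNA as well. With the offset of 50 the AT3G02480 difference in hypoxic roots was 0.98 and the AT4G31830 difference 0.73, neither called, and with array weights the AT4G31830 difference was 0.88. In air both were lost without replicate 1 of p35S (0.81 for AtLEA4-1 and 1.03 for AT3G02480) or replicate 3 of total RNA (0.86 and 0.84 in the same order). Over all probe sets, 4.66% were called in hypoxic roots, 6.03% in control roots, 3.54% in hypoxic shoots and 3.13% in control shoots. The difference between polysomal and total RNA did not change under hypoxia beyond the threshold for any of the 5 genes (limma; 0 of 10 tests, and 0 of 10 at an unadjusted p under 0.05), where 0.0264% of all probe sets were called in roots and 0% in shoots.

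Other seed genes were read from lists of loci to see how far the pattern in control shoots reached. A listed gene counts as measured only where the annotation gave it a probe set with 1 gene. This held for 27 of 41 LEA and dehydrin genes, 8 of 12 other dry seed genes and 5 of 13 storage genes. Of 27 measured genes for other LEA proteins and dehydrins, 10 were higher in p35S RNA than in the other lines and none lower, with a median difference of 0.56. Over all probe sets 0.95% were higher and 0.84% lower in this comparison, and 2.32% were higher and 1.44% lower in total RNA, which is the background for each list below. In total RNA 11 were higher and 1, AT2G23120, lower (−1.20), with a median of 0.51. LEA18 had the largest p35S difference, 3.86 ± 0.23 (adjusted p = 1.65e-17), and 2.77 ± 0.20 in total RNA. AT3G17520 was higher by 3.31 ± 0.22 in p35S and 2.94 ± 0.19 in total RNA, AT3G15670 by 2.92 ± 0.19 and 2.14 ± 0.16, and AT3G53040 by 2.33 ± 0.19 and 2.53 ± 0.16. The lowest member of the list, AT2G44060, differed by −0.74 in p35S RNA and was not called, so the list was spread over both signs.

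Of 8 other genes of dry seeds, 6 were higher in p35S and 6 in total RNA, among them AT1G04560 (3.19 ± 0.34 and 3.46 ± 0.29) and AT5G01300 (2.96 ± 0.20 and 2.14 ± 0.17). ATOEP16-2, a protein of the plastid envelope, was higher by 2.04 ± 0.27 and 1.17 ± 0.23. Of 5 storage proteins and cupins, 2 were higher in both, AT2G28490 (2.52 ± 0.29 and 3.10 ± 0.24) and AT4G36700 (1.70 ± 0.24 and 2.49 ± 0.21), whereas the storage protein PAP85 (0.42 and 0.44) and AT1G03890 (0.52 and 0.88) were not called. Only 3 of 17 other listed oil body genes were matched to a probe set. Of these, AT3G01570 was higher (1.28 ± 0.24 and 1.28 ± 0.21) and OLEO3 and AT3G18570 were not called. ICL, the isocitrate lyase that turns seed oil towards sugar through the glyoxylate cycle, was higher by 1.44 ± 0.19 in p35S and 2.22 ± 0.16 in total RNA.

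Several listed genes of other functions were not called. Few genes of these lists were matched to a probe set. They were 2 of 13 for oil breakdown, 2 of 7 for seed coat, 1 of 14 regulators, and 2 of 17 for abscisic acid and drought. SDP1, the lipase that starts seed oil breakdown, differed by −0.38 and −0.32 and was not called. The seed coat flavonoid genes BAN (0.13 and 0.04) and DFR (0.21 and 0.07) and the seed maturation regulator EEL (0.20 and 0.16) were not called either. The cold and drought genes COR47 (−0.70 and −1.07) and COR15A (−0.56 and −0.91) had negative differences in p35S and total RNA, of which the COR47 difference in total RNA was called (adjusted p = 1.94e-05).

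Over the LEA, oil body, storage and other dry seed lists together, 43 genes were measured and 19 were higher in p35S RNA of control shoots, with a median of 0.87 against −0.01 for all probe sets, of which 0.95% were higher. In hypoxic shoots 16 of the 43 were higher in p35S RNA and 15 in total RNA, where 0.831% and 1.41% of all probe sets were. In control roots, where 1.26% of all probe sets were higher in p35S RNA, 4 of the 43 were, namely AT1G04560 (1.36 ± 0.27), AT2G28490 (1.08 ± 0.23), AT5G07330 (1.08 ± 0.34) and AT5G01300 (1.00 ± 0.17), and in total RNA DI21 was higher (1.21 ± 0.14) and AT5G53820 lower (−1.20 ± 0.13), both named after their values were seen. In the pKAT1 line of control shoots 9 of the 43 were higher than in the other 5 lines and none was lower (median 0.30), where 4.58% of all probe sets were higher and 1.21% lower. Among these 9 was LEA18 (2.76 ± 0.23). The lists were written with earlier results of these data known.

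**Figure D4:**
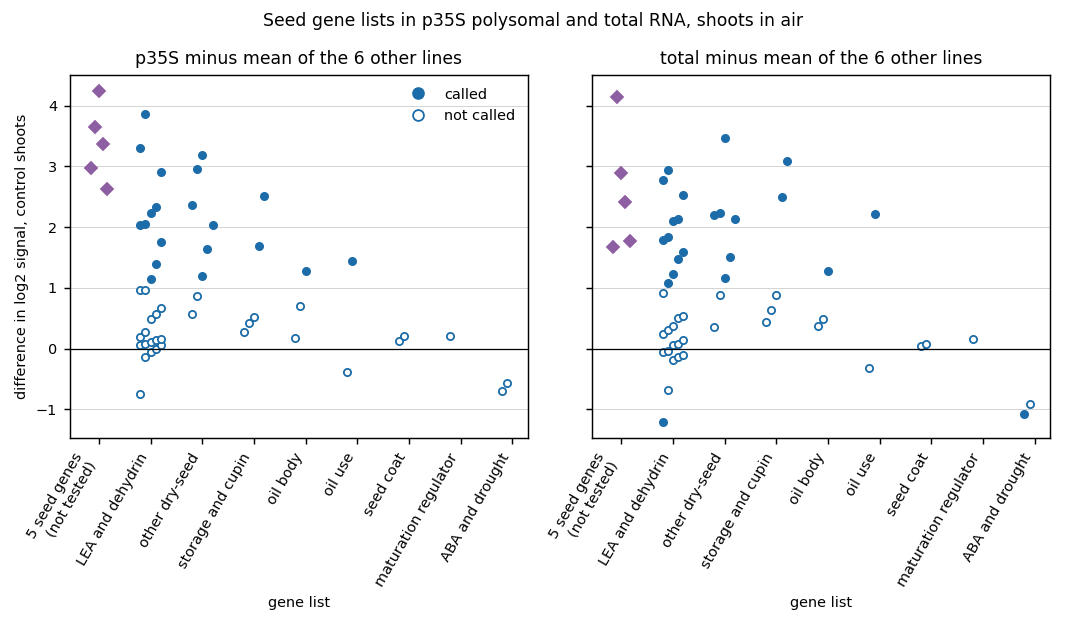
Difference in log2 signal between p35S polysomal RNA (left) or total RNA (right) and the mean of the 6 other lines in control shoots, for the 5 genes (diamonds, not tested) and for lists of other seed genes (1 point per gene, filled where called). The LEA points reach from −0.74 to 3.86 in p35S RNA, while the 2 measured genes of abscisic acid and drought response lie below 0.

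The 5 genes varied together across the 36 groups, with Pearson correlations of group means between 0.82 (M17 and AT4G31830) and 0.96 (AT2G25890 and AT4G31830). The groups share plant lines, and roots against shoots and p35S and total RNA against the rest set most of their spread. Over the 11 shoot groups without p35S and total RNA the correlations ran from −0.38 (AtLEA4-1 and AT4G31830) to 0.79 (AT3G02480 and AT2G25890). The order of the single shoot lines thus varied from gene to gene.

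The genes whose 36 group means were most like the mean profile of the 5 were AT2G38905 (r = 0.99), AT5G01300 (0.99), AT1G04560 (0.98), ATOEP16-2 (0.98), AT3G58450 (0.97), AT3G54940 (0.97), AT1G47980 (0.97), AT3G15670 (0.97), LEA18 (0.96) and AT4G36700 (0.96), out of 13508 candidates. AT2G38905 averaged 9.33 in control shoot p35S RNA and 8.62 in total RNA, against 7.15 in pKAT1 and 6.45 in pSUC2. LEA18 averaged 9.26 in p35S RNA and 8.16 in total RNA, against 7.69 in pKAT1 and 4.95 in pSUC2. The list depended on the measure: 2 of the 10 were also among the first 10 by Spearman correlation, and 6 when p35S and total RNA were left out.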

How the data were processed

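The authors deposited log2 signals of 79 Affymetrix ATH1 arrays made with RMA in the R package affy, per the submitters' processing notes. No version is given in the sources used here, nor whether all arrays were normalized together. The labels' protocols state 15 to 100 ng of RNA and 2 cycles of cDNA synthesis. The table holds 22810 probe sets, of which 64 AFFX controls were left out. The platform annotation gives 1 gene for 13513 probe sets, several for 503 and none for 8730. The number of arrays limits the precision.

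With limma (version 3.58.1, under R 4.3.3) 1 mean per group was estimated from the 79 arrays (lmFit, eBayes), with Benjamini-Hochberg adjustment over 22746 probe sets and a call at an adjusted p under 0.05 and a log2 difference of at least 1. One spread per probe set is shared by all groups, and it was wider in shoots than in roots for these genes. The members and gene lists were chosen with earlier results of these data known. Genes named are the 5 members, the 10 most alike by Pearson correlation, up to 4 per list with the largest absolute p35S difference in control roots, and genes singled out after their values were seen (EXPA7, EXPA18, AT1G62500, AT1G09750, AT2G23120, DI21, AT5G53820, AT4G36600, AT2G44060). The hypoxia responses given for AT5G07330 and other listed genes in the closing observations were likewise picked by value. A listed gene with several probe sets was read by the one with the highest mean. Same-numbered hypoxic and control arrays of total RNA deviated together (r = 0.26, 0.54 and 0.72 in roots and 0.36, 0.22 and 0.60 in shoots). Their numbers were therefore taken to pair the arrays, and pairing changed no call of the 5 genes in total RNA. In the other populations this r ran from −0.229 (pRPL11C roots) to 0.594 (pSHR roots), so pairing was not settled there. The fit was tested on simulated data: of 100 probe sets of shoot pSUC2 changed by 1.5 on the log2 scale, 93 were recovered, and 98 in shoot total RNA. The simulated noise was independent, with 1 spread per probe set for both organs, as the fit assumes. These shares therefore do not hold for the wider spread of the 5 genes in shoots. Alternatives were an offset of 50 on the linear scale, quantile normalization, a filter for log2 6 on 2 arrays, array weights, organs fitted apart, a replicate block and leaving out each array.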

Additional observations from a re-analysis of the deposited data

Results flagged for a closer look

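The measured M17 hypoxia response differed between organs in the pSUC2 line: root minus shoot was −2.969 in log2 signal, by a test of the difference itself (limma, adjusted p = 2.91e-04). The root signals of M17 in that line were low for the array, so a change in roots that stayed at such levels may not have been detectable. Under hypoxia the root mean (3.895) stayed below the shoot mean (7.426). The M17 response also differed among the 5 shoot lines other than p35S, with a span of 2.506 (F-test added after the values had been seen, adjusted p = 0.0172), a call that was lost with shoots fitted alone (adjusted p = 0.305). The causes were not tested. The one group of 4 arrays, control root total RNA, was tested for a stray array in each of the 5 genes, and 0 of 5 tests marked one.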

How the results depend on the processing

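No called difference of the 5 genes changed sign under an alternative run, whereas differences that were not called did. With the offset of 50, which shrinks dim signals, the count of hypoxia calls in shoots was 3 in place of 7, that of the response among lines 0 in place of 1, and the medians of the 5 genes over the other lines were 0.26 (p35S) in control roots, 2.27 (p35S) and 1.47 (total) in control shoots, 0.11 (p35S) in hypoxic roots and 1.58 (p35S) and 0.75 (total) in hypoxic shoots. With organs fitted apart, 2 hypoxia calls in shoots were left (M17 in pSUC2 and AT2G25890 in total RNA), 0 for the response among lines and 4 of 7 for polysomal against total RNA. With the replicate block, polysomal against total RNA had 3 calls. Its shoot values were 0.82 (hypoxia) and 0.84 (air) for AT3G02480, 0.76 for AT4G31830 under hypoxia and 0.86 for AtLEA4-1 in air, none called; r of same-numbered p35S and total RNA arrays was 0.55 and 0.50 in hypoxic roots, 0.01, 0.15 and 0.39 in control roots, 0.33 and 0.03 in hypoxic shoots and 0.30 and 0.16 in control shoots, so that pairing was neither stated by the labels nor settled by the data. The organ difference in hypoxia response had 2 calls in place of 1 with array weights and with the filter for brighter probe sets.

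Leaving out single arrays gave 5 to 9 hypoxia calls in shoots, 0 to 1 in roots, 0 to 1 for the response among lines, 4 to 9 for polysomal against total RNA, 1 to 3 for the organ difference in response, 7 to 10 for one line over the others, and 0.49 to 0.83 for the median in control p35S roots. Exchanging the numbers of the hypoxic pRPL11C root arrays, added after the data were seen, gave 2041 called probe sets, against 2037 with the deposited numbers and 1980 without a block. Counts over all probe sets moved by over 1.5 times in 30 of 51 comparisons with the offset, 6 of 47 with the block, 5 of 51 with array weights, 3 of 43 with organs apart, 1 of 51 with quantile normalization and 0 of 51 with the filter. With the offset, the organ differences of AT2G25890 (−0.96) and AT4G31830 (−0.83) in hypoxic total RNA fell below the size limit. Each gene has 1 probe set, so another probe set could not be tried.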

Other observations

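AT5G07330, a gene of the dry seed list whose hypoxia response was singled out after its value was seen, rose under hypoxia by 3.85 ± 0.54 in pSUC2 roots (limma, adjusted p = 7.47e-07). Its response there exceeded that in pSUC2 shoots by 3.11 ± 0.77 (adjusted p = 0.0168), the opposite direction to that of M17 (−2.97). DI21, listed with the LEA genes, was lower in p35S polysomal than in total RNA in hypoxic roots (−1.92 ± 0.24), control roots (−1.80 ± 0.20), hypoxic shoots (−1.42 ± 0.24) and control shoots (−1.02 ± 0.24), whereas AT3G02480 was higher in all 4. Of these AT3G02480 calls, only that in control roots was kept under all alternatives run.

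In pKAT1 shoots AT4G36600 (1.49 ± 0.26), AT3G17520 (1.49 ± 0.29), AT2G28490 (1.77 ± 0.38) and COR15A (1.13 ± 0.27) rose under hypoxia. In control shoots AT2G23120 was higher in pSUC2 than in the other 5 lines (2.52 ± 0.34) and lower in pCER5 (−2.37 ± 0.34). These values too were singled out after they were seen.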
